A study of Mus musculus with 9 samples.

Results

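The respiratory chain passes electrons from nutrients to oxygen and pumps protons across the inner mitochondrial membrane, and ATP synthase uses that gradient to make ATP. Its protein subunits come from separate genomes. Mitochondrial DNA encodes core subunits of complexes I, III, IV and V, and the nucleus encodes all other subunits, the whole of complex II and cytochrome c. In beta cells the ATP made this way closes potassium channels and couples glucose to insulin release. The genes described here are the protein-coding genes in the count table whose symbols start with mt-, Nduf, Uqcr, Atp5 or Cox4 to Cox8, together with Sdha, Sdhb, Sdhc, Sdhd and Cycs. They numbered 108 of the 54347 genes listed, with 13 encoded by mitochondrial DNA and 95 by nuclear genes.

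The libraries came from 6 tumors and 3 islet samples of mice on the C57BL/6 background. Tumor mice (INS-p25OE) carried Ins2-rtTA and tetOp-p25GFP, so that doxycycline in the drinking water, given from weaning at 3 to 4 weeks of age, switched on p25-GFP in cells that use the Ins2 promoter. p25 is a fragment of p35 that activates the kinase Cdk5, and the line also makes a little of it without doxycycline. Tumors M1, M2 and M3 are taken as functional, meaning that the mouse had raised hormone in blood, and M4, M5 and M6 as non-functional. The authors name the groups so, and the labels add the word Inulin to the titles of M1, M2 and M3. Islet samples NI1, NI2 and NI3 are labelled C57BL/6 without the transgenes. Age at collection and any doxycycline given to the islet donors are not in the labels. The authors state that offspring received doxycycline at weaning. Their normal controls were littermates without the transgenes, housed together with the bi-transgenic mice. Whether the islet samples came from such littermates is not stated. M2 came from a female mouse and the other 8 libraries from males.

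Several facts of the libraries bear on every comparison. Total counts ran from 36468280 to 63637175. Levels are given as CPM, counts scaled to a common effective library total that leaves out mitochondrial genes, and the 3 counts used as a detection floor equal 0.0461 to 0.129 CPM. The insulin gene Ins2 was at 96550 CPM in NI1, 252914 in NI2 and 270199 in NI3, and at 7933 to 96312 in the tumors. Cdk5r1, the gene for p35, was at 162 to 435 CPM in the tumors, 19.9 in NI2 and 13.6 in NI3, but at 304 in NI1. On this gene NI1 goes against its islet label, and it is called the library labelled NI1. Some lists placed it with the islets, with summed lymphoid markers at 138 CPM (131 and 145 in the other islets, 6.30 to 104 in tumors) and dissociation response genes at 665. Others placed it nearer the tumors. Summed proliferation markers were at 548 CPM (179 and 71.7 in the other islets, 606 to 1219 in tumors). Summed beta cell markers were at 132929 (356015 and 397373 in the other islets, 20483 to 127264 in tumors). Over all 15657 tested genes the log2 levels of the library labelled NI1 correlated with M6 at r = 0.986 and with NI2 and NI3 at 0.928 and 0.916. Over the 91 tested nuclear-encoded members its log2 levels correlated with M6 at r = 0.995 and with NI2 and NI3 at 0.977 and 0.956 (genes are not independent replicates, and libraries share the same genes). NI3 had acinar marker genes at a summed 15197 CPM, against 851 and 1121 in the other islet libraries and 23.8 to 497 in tumors. The labels name no batch, and nothing in them says how many animals an islet sample pooled.

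Mitochondrial sequence has a near-identical copy in the nuclear genome, which decides how its reads can be counted. On chromosome 1, bases 24611535 to 24616197 of GRCm38, 7 annotated pseudogenes within 4663 bases repeat parts of mt-Co1, mt-Co2, mt-Atp6, mt-Co3, mt-Nd3, mt-Nd4l and mt-Nd4. Gm10925 was identical to mt-Atp6 (ATP synthase subunit a) over all 678 bases compared, Gm28437 to mt-Co3 over 783, Gm28661 to mt-Co2 over 681 and Gm28439 to mt-Nd4 over 876. Gm28438 differed from mt-Nd3 at 1 of 345 bases, the substitution T3C (counted from the first base of mt-Nd3), and ran identical for the next 342. The first 60 bases of both pairs are shown because a read from the mt-Atp6 stretch, or from the mt-Nd3 stretch after the capital, has the same letters in the organelle and the nucleus. They are GENCODE transcripts of GRCm38, with mt-Nd3 at chrM:9459-9518 and mt-Atp6 at chrM:7927-7986 on the plus strand, and Gm28438 at chr1:24613060-24613119 and Gm10925 at chr1:24614592-24614651 on the minus strand. The capital marks the differing base.
mt-Nd3: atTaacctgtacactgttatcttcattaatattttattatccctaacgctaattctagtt
Gm28438: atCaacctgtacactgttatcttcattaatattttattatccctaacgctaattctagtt
mt-Atp6: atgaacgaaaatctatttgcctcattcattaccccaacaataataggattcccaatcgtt
Gm10925: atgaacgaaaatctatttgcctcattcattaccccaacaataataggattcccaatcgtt

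The counts were split between each gene and its copy in unequal shares. For mt-Atp6 the copy was listed with 75.2%, 73.8% and 78.8% of the pair's counts in M1, M2 and M3, with 70.7%, 58.5% and 71.2% in M4, M5 and M6, and with 60.2%, 59.8% and 60.8% in NI1, NI2 and NI3. The copy thus held most of the counts in all 9 libraries. For mt-Nd3 the copy's share ran from 80.6% in NI3 to 91.2% in NI2, and for mt-Nd4l from 51.1% in NI2 to 78.3% in M6. For mt-Co2, a copper-binding core subunit of cytochrome c oxidase, the copy held 19.1%, 10.9% and 20.5% in the functional tumors, 5.0% in M6 and 0.0194% in M4, and was at 0 in the other 4 libraries. mt-Nd1, mt-Nd2, mt-Nd5, mt-Nd6, mt-Cytb and mt-Atp8 had no annotated copy at or above 97% identity over 150 bases. Whether any count on the copies came from nuclear transcripts was not tested, so each result on mitochondrial genes is given as deposited and, where it moves, with the copies pooled into their genes. Pooling was chosen after the data were seen.

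**Figure D1:**
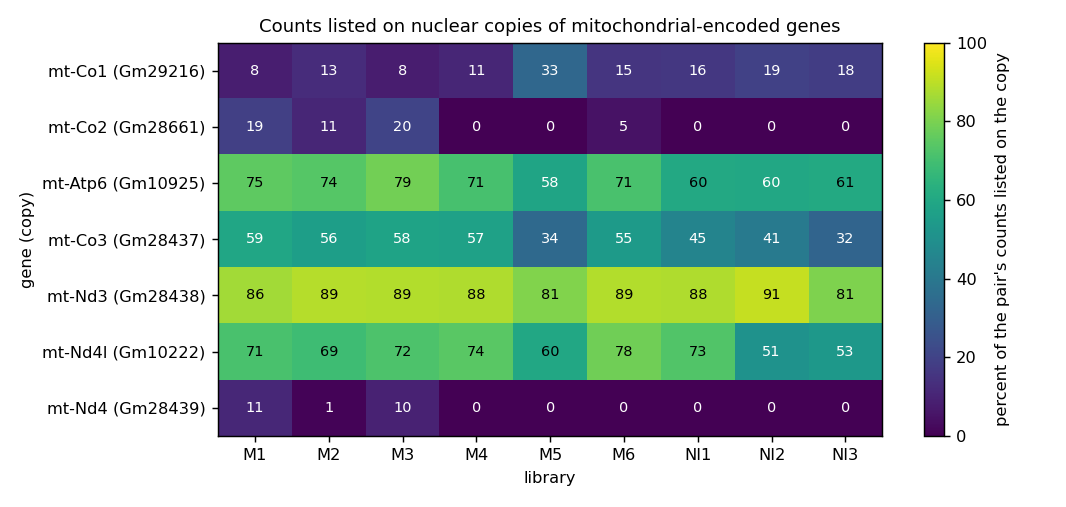
Share of the counts of each pair that was listed on the nuclear copy, in percent, for 7 mitochondrial-encoded genes (rows, with the chromosome 1 copy in brackets; the mt-Co1 row also counts the minor copy Gm13340) and 9 libraries (columns). The mt-Nd3 row runs from 80.6 to 91.2, whereas the mt-Co2 row is at or near 0 in M4, M5 and the islet libraries and the mt-Nd4 row is above 0 only in M1, M2 and M3.

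Transcripts of the 13 mitochondrial-encoded genes took a much larger share of M4 than of any other library. They held 3.66%, 6.76% and 3.84% of all counts in M1, M2 and M3, and 31.2%, 8.23% and 3.46% in M4, M5 and M6. In the library labelled NI1 they held 4.80%, in NI2 2.65% and in NI3 1.72%. M4 stood apart by a wide margin, M1, M3 and M6 lay below the library labelled NI1, and the ranges of tumors and islets overlapped. With the copies included the shares were 39.9% in M4, 4.43% to 10.6% in the other 5 tumors and 2.13% to 5.99% in the islet libraries. The mitochondrial ribosomal RNAs mt-Rnr1 and mt-Rnr2, which are not members, were also highest in M4, with 0.953% of counts in M4 against 0.0385% to 0.199% elsewhere. M4 also had the most Malat1, a long RNA kept in the nucleus, at 9744 CPM against 312 to 3484 in the other 8 libraries, and the highest summed fibroblast markers (2735 CPM against 136 to 1466) and macrophage markers (1241 against 188 to 974). The part of these cells and of RNA quality in the mitochondrial share of M4 was not tested. In bulk tissue, more RNA per cell and more cells of a type that is rich in it cannot be told apart.

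The nuclear-encoded members did not share this excess. Together they held 0.592%, 0.956% and 0.643% of the non-mitochondrial counts in M1, M2 and M3, 0.559%, 0.955% and 0.690% in M4, M5 and M6, and 0.646%, 0.562% and 0.6251% in NI1, NI2 and NI3. On this measure M2 and M5 were highest and M4 was lowest, just under NI2. Its total keeps the counts on the nuclear copies, which were 8.73% of all counts in M4 and 0.408% to 2.40% elsewhere. On the CPM scale the summed members were lowest in M3 (5090) and M1 (5525), with M4 at 5959 and NI2 at 6953. The place of M4 thus depends on the total used. Within a library the ratio of summed mitochondrial-encoded to summed nuclear-encoded counts needs no scaling. Its log2 value was 2.68, 2.93 and 2.64 in M1, M2 and M3, 6.36, 3.23 and 2.38 in M4, M5 and M6, and 2.97, 2.28 and 1.48 in NI1, NI2 and NI3. M4 thus carried 82.1 mitochondrial counts for each nuclear-encoded one, and the other libraries between 2.80 and 9.41. The mean was 3.37 ± 1.49 (SD, n = 6) in tumors and 2.24 ± 0.74 (SD, n = 3) in islets, a difference of 1.13. Without M4 the difference was 0.53, and without the library labelled NI1 it was 1.49. Functional tumors, at 2.75 ± 0.16 (SD, n = 3), lay inside the range of the non-functional tumors, at 3.99 ± 2.10 (SD, n = 3). That difference of -1.24 was -0.06 without M4. With counts on the copies of mitochondrial-encoded and nuclear-encoded members pooled, the ratio was 103 in M4 and 3.34 to 11.9 in the other libraries. The mean log2 ratio was then 3.72 ± 1.49 (SD, n = 6) in tumors and 2.52 ± 0.76 (SD, n = 3) in islets.

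**Figure D2:**
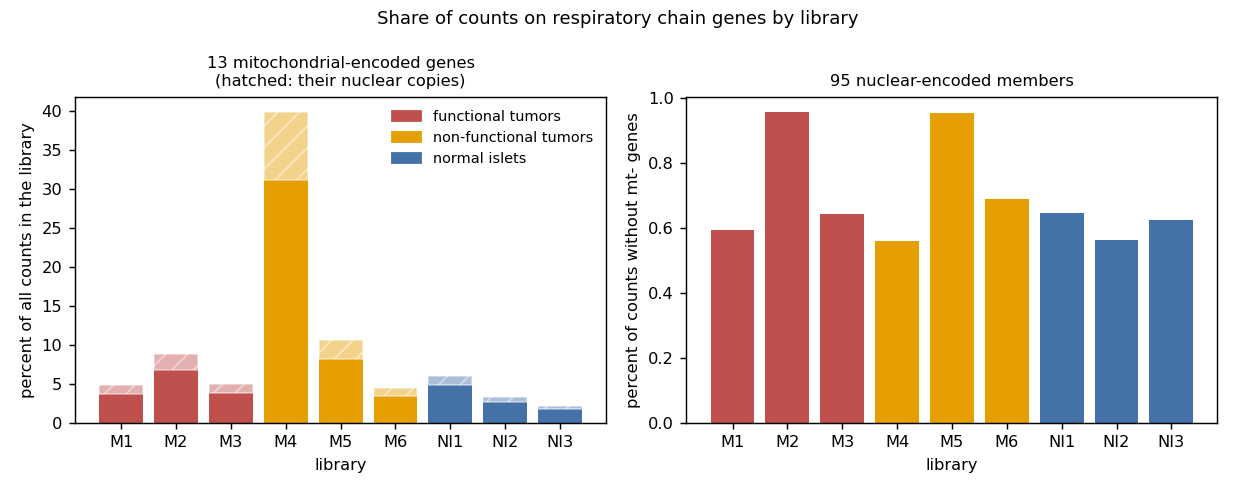
Percent of all counts on the 13 mitochondrial-encoded genes, with their nuclear copies hatched on top (left), and percent of counts without mitochondrial genes on the 95 nuclear-encoded members (right), 1 bar per library with no error bar. M4 reaches 31.2% on the left before the copies and is the lowest bar on the right at 0.559%. The total on the right keeps the counts on the nuclear copies.

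Of the 108 genes, 13 mitochondrial-encoded and 91 nuclear-encoded genes had at least 1 CPM in at least 3 libraries and were tested. The other 4 were Cox7b2, Cox8b and Cox8c, isoforms of complex IV known from testis or muscle, and a second entry named Atp5o. Cox7b2 reached at most 0.19 CPM, Cox8b was at 0.13 CPM in M6 and at 0 elsewhere, and Cox8c was at 0 in all libraries. In tumors against islets edgeR called 0 of the 104 tested members at an adjusted p under 0.05, against 0.255% of all 15657 genes, all of them lower in tumors. Of 11 genes known to respond to tissue dissociation, 9 were among these calls, and their summed level was 107 to 182 CPM in tumors and 665 to 2942 in islets. Their part in the members' values was not tested. At an unadjusted p under 0.05 the members counted 5 higher and 4 lower, or 8.65%, beside 19.8% of all genes. DESeq2 called Cox6b2 and Atp5g2 as higher and Cox6a2 and Uqcrc2 as lower, and gave no adjusted p for mt-Nd4, mt-Nd4l, mt-Nd5, mt-Cytb, mt-Co1 and mt-Atp8. Over all genes it called 8.1%. limma-voom called 0 members, beside 0.211% of all genes. The median log2 fold change was 1.88 over the mitochondrial-encoded members, 0.01 over the nuclear-encoded members and 0.03 over all tested genes. Tumors and islets did not overlap for 4 nuclear-encoded members and 1 mitochondrial-encoded member, beside 7.66% of all genes.

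Levels per transcript length, as deposited, placed most of the mitochondrial-encoded genes above the nuclear-encoded ones, the exceptions being mt-Nd4l, mt-Nd3 and mt-Nd6. By the median over 9 libraries, mt-Co2 was at 7209 CPM per kb, mt-Co1 at 7077 and mt-Cytb at 4983, and mt-Nd4l (277), mt-Nd3 (173) and mt-Nd6 (50.7) were lowest of the 13. The highest nuclear-encoded gene was Atp5b, the catalytic beta subunit of ATP synthase, at 278 CPM per kb, followed by Cox7a2l (266), Cox4i1 (247) and Atp5l (245). The lowest tested were Cox7a1 (1.78), Cox6a2 (3.04), the complex I assembly factor Ndufaf4 (3.93) and Cox6b2 (4.08). The values of mt-Nd3 and of the other genes with copies leave out the counts listed on the copies. With the copies pooled, mt-Nd3 was at 315 to 6649 CPM before division by its length of 348 bases. On the same basis mt-Nd4l was at 84.8 to 3493 CPM, with a length of 297 bases. By the median over 9 libraries both were exceptions only as deposited, and the order of the genes with copies also holds only as deposited. In NI3, where pooled mt-Nd4l was lowest, it was still below Atp5b per kb (800 CPM with a length of 1916 bases).

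Each of the 13 mitochondrial-encoded genes had a positive fitted difference in tumors, from 1.36 (mt-Atp6) to 3.00 (mt-Atp8) on the log2 scale, and none passed the test. mt-Co1, the catalytic subunit of cytochrome c oxidase, was at 11265, 21324 and 10518 CPM in M1, M2 and M3, at 136567, 17962 and 8139 in M4, M5 and M6, and at 10935, 8905 and 5883 in NI1, NI2 and NI3. M3 and M6 lay within the range of the islet libraries and M4 was far above the rest. Its log2 fold change was 2.0 (SE 1.09, adjusted p = 0.332, edgeR) and 0.69 without M4. mt-Cytb, the only mitochondrial-encoded subunit of complex III, ran from 4663 to 75794 CPM in tumors and from 3205 to 7256 in islets (log2 fold change 1.88, SE 1.07, adjusted p = 0.350, edgeR, and 0.52 without M4). Without M4 the median over the 13 genes was 0.52. With the copies pooled, mt-Atp6 moved from 1.36 to 1.77 and the median was 1.88.

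mt-Atp8, a small subunit of ATP synthase, was the mitochondrial-encoded gene whose groups did not overlap. It was at 230, 331 and 196 CPM in M1, M2 and M3, at 3062, 209 and 273 in M4, M5 and M6, and at 192, 54.5 and 21.5 in NI1, NI2 and NI3. The library labelled NI1 lay just under the lowest tumor. Its log2 fold change was 3.00 (SE 1.21, adjusted p = 0.218, edgeR), 1.47 without M4 and 4.24 without the library labelled NI1 (adjusted p = 0.107). Without both it was 2.71 (adjusted p = 0.014, edgeR), in a fit that called 7.11% of all genes, and the adjusted p ran from 0.014 to 0.628 over 23 alternatives. Its share of all mitochondrial-encoded counts varied 8.79-fold between libraries, from 0.0923% in NI3 to 0.811% in M6. Its reading frame shares 43 bases, chrM:7927-7969 on the plus strand, with mt-Atp6, and these bases are also in the nuclear copy. The capitals mark the start codon of mt-Atp6.
mt-Atp8/mt-Atp6 overlap: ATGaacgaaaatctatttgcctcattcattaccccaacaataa
How reads of the 204-base gene that reach into this overlap were assigned was not tested.

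For 5 of the 7 genes with a copy, the share of the mitochondrial transcripts was more even between libraries once the copies were pooled. As deposited, mt-Atp6 made up 3.55% (M3) to 7.75% (NI2) of the mitochondrial-encoded counts, a 2.18-fold range. With copies pooled it made up 12.6% to 15.2%, a 1.21-fold range. The range of mt-Co3, a core subunit of complex IV, narrowed from 2.07-fold to 1.33-fold, and that of mt-Nd3 from 3.5-fold to 1.70-fold. Of the genes with a copy, mt-Nd4l went the other way, from 2.56-fold to 3.62-fold, as did mt-Nd4, from 1.23-fold to 1.30-fold. mt-Nd6, the one member read from the opposite strand, made up 0.0304% in NI3 to 0.0955% in M5. The library kit does not mark strand, so reads of mt-Nd6 and of its antisense transcript cannot be told apart. mt-Nd6 was at 18.2, 41.9 and 18.8 CPM in M1, M2 and M3, at 331, 82.3 and 27.2 in M4, M5 and M6, and at 26.3, 12.4 and 7.08 in NI1, NI2 and NI3. M4 and M5 were highest, and its log2 fold change was 2.5 (SE 1.05, adjusted p = 0.230, edgeR). mt-Nd5, whose gene is the longest of the 13 at 1824 bases, made up 3.34% in M5 and 6.19% to 8.0% in the other 8 libraries.

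Complex I takes electrons from NADH, and the 44 nuclear-encoded genes named for it were split evenly around 0. In tumors against islets 22 had a positive and 22 a negative log2 fold change, with a median of -0.01. The 7 nuclear core subunits, which carry the flavin and the iron-sulfur clusters, ran from -0.35 (Ndufs1, SE 0.21, adjusted p = 0.378, edgeR) to 0.07 (Ndufv1). The accessory subunit Ndufc2 was lowest of the complex. It was at 41.9, 37.1 and 30.4 CPM in M1, M2 and M3, at 41.6, 50.1 and 50.0 in M4, M5 and M6, and at 50.3, 71.5 and 72.7 in NI1, NI2 and NI3. All 6 tumors lay below all 3 islet libraries, though the library labelled NI1 only by a fraction of a CPM. The log2 fold change was -0.63 (SE 0.20, adjusted p = 0.166, edgeR), and leaving out the library labelled NI1 gave -0.79 (adjusted p = 0.053, edgeR). Of 2 further complex I genes named after their values were seen, the assembly factor Ndufaf1 was at 8.0 to 11.1 CPM in tumors and 12.3 to 12.4 in islets, and the acyl carrier subunit Ndufab1 at 21.2 to 28.0 and 28.1 to 33.1. With its copy Gm4459 pooled, the groups of Ndufab1 overlapped.

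All 4 genes of complex II, the succinate dehydrogenase that also serves the citric acid cycle, had negative fitted values, and none passed the test. Sdha, the flavoprotein, was at 211, 266 and 198 CPM in M1, M2 and M3, at 182, 185 and 251 in M4, M5 and M6, and at 226, 281 and 394 in NI1, NI2 and NI3. M2 and M6 lay within the range of the islets. The log2 fold change was -0.48 (SE 0.22, adjusted p = 0.253, edgeR). Sdhb, the iron-sulfur subunit, and the membrane anchors Sdhc and Sdhd were at -0.12, -0.21 and -0.28. In complex III, which passes electrons to cytochrome c, the median of the 8 nuclear-encoded genes was 0.00. Uqcrc2, a core protein of the complex, was at 103, 87.4 and 79.1 CPM in M1, M2 and M3, at 85.7, 67.1 and 119 in M4, M5 and M6, and at 112, 147 and 183 in NI1, NI2 and NI3. Only M6 was above the library labelled NI1, and all 6 tumors were below NI2 and NI3. The log2 fold change was -0.71 (SE 0.21, adjusted p = 0.161, edgeR). With the library labelled NI1 left out the value was -0.87 (adjusted p = 0.045, edgeR), in a fit that called 8.4% of all genes. Its partner Uqcrc1 and the Rieske protein Uqcrfs1 were at -0.25 and -0.06.

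Complex IV held the largest differences among the nuclear-encoded genes, and they lay in rarer isoforms rather than in the common subunits. Cox6a2, the isoform known from heart and skeletal muscle, was at 1.29, 2.58 and 0.59 CPM in M1, M2 and M3, at 2.02, 3.39 and 1.49 in M4, M5 and M6, and at 2.07, 8.37 and 20.4 in NI1, NI2 and NI3. NI2 and NI3 lay above all tumors, and the library labelled NI1 lay among them. Its log2 fold change was -2.44 (SE 0.66, adjusted p = 0.149, edgeR). With the library labelled NI1 left out the value was -2.93 (adjusted p = 0.019, edgeR), the other call among members in that fit. The adjusted p ran from 0.012 to 0.593 over 23 alternatives. The summed muscle markers were at 1.31 to 3.79 CPM in all 9 libraries. Cox6a1, the widely expressed isoform, was at 57.9 to 141 CPM in tumors and 68.1 to 104 in islets (log2 fold change -0.02).

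Cox6b2, known from testis, had the highest fold change among the nuclear-encoded genes. It was at 5.21, 0.77 and 8.10 CPM in M1, M2 and M3, at 6.41, 8.37 and 2.25 in M4, M5 and M6, and at 1.43, 0.77 and 0.16 in NI1, NI2 and NI3. All tumors except M2 were above all islet libraries, and M2 was level with NI2. The log2 fold change was 2.70 (SE 0.89, adjusted p = 0.168, edgeR), and DESeq2 called it with 2.72 (adjusted p = 0.015). Cox7a1, another muscle isoform, was at 0.53 to 1.39 CPM in tumors and 0.24 to 0.54 in islets (log2 fold change 1.31, SE 0.53, adjusted p = 0.221, edgeR). The common subunits had log2 fold changes near 0. Cox4i1 was at -0.11, Cox7a2 at 0.23, Cox7a2l at -0.16, Cox7b at -0.28, Cox8a at 0.20 and Ndufa4 at -0.04. Cox4i2 and Ndufa4l2, isoforms known from low-oxygen conditions, were at 0.23 and 0.39, and on the CPM scale Ndufa4l2 was at 22.2 CPM in M4 and 20.6 in M5 and at 8.12 to 11.1 in the other 7 libraries.

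Some genes of cytochrome c and ATP synthase have near-identical copies elsewhere in the nuclear genome, and whether counts on these were transcripts of the copies was not tested. Atp5g2, which encodes the proton-carrying c ring, was at 93.2, 93.9 and 95.01 CPM in M1, M2 and M3, at 94.0, 119 and 131 in M4, M5 and M6, and at 70.6, 68.7 and 31.6 in NI1, NI2 and NI3. All tumors were above all islet libraries, and the log2 fold change was 0.87 (SE 0.26, adjusted p = 0.161, edgeR), which DESeq2 called (adjusted p = 0.031). Gm10175 on chromosome 7 was identical over 645 bases and held 31.8%, 40.7% and 75.2% of the pair's counts in NI1, NI2 and NI3, 30.2% in M2, 33.1% in M5 and 0.0% to 4.6% in the other tumors. With both pooled the levels were 100, 138 and 102 CPM in M1, M2 and M3, 96.6, 183 and 135 in M4, M5 and M6, and 106, 119 and 131 in NI1, NI2 and NI3. The groups then overlapped, and the log2 fold change was 0.08. Cycs, cytochrome c, was at 58.3 CPM in M2 and at 19.4 to 31.0 in the other 8 libraries. Its log2 fold change was 0.14 as deposited and -0.17 with copies pooled, neither called. The catalytic core genes of ATP synthase, Atp5a1 and Atp5b, were at -0.46 (SE 0.25, adjusted p = 0.327, edgeR) and -0.05.

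**Figure D3:**
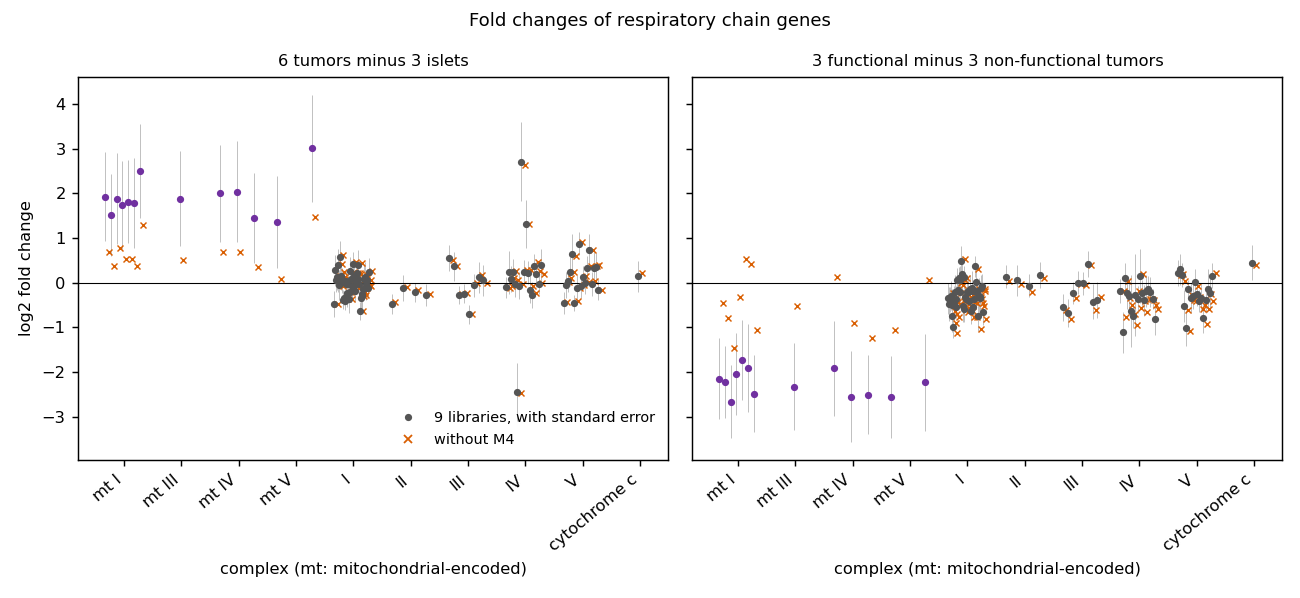
Log2 fold changes of the 104 tested genes by complex, for 6 tumors against 3 islet libraries (left) and for 3 functional against 3 non-functional tumors (right). Dots are fits on 9 libraries with standard errors as bars (purple, mitochondrial-encoded; grey, nuclear-encoded) and crosses are the same genes without M4. The purple dots lie between 1.36 and 3.00 on the left and between -2.66 and -1.72 on the right, and their crosses lie nearer 0.

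The next comparison set functional against non-functional tumors. edgeR called 0 of the 104 members, beside 0% of all genes. At an unadjusted p under 0.05, 0 members were higher and 16 were lower in functional tumors, beside 10.2% of all genes in both directions. Of these, 8 were mitochondrial-encoded and 8 nuclear-encoded. Without M4, 0 of the mitochondrial-encoded genes and 11 of the 91 nuclear-encoded genes had such a p, beside 8.87% of all genes. DESeq2 called 4 as lower in functional tumors, mt-Nd3, mt-Co3, mt-Atp6 and Ndufa3, beside 0.715% of all genes, and limma-voom called 0 members, beside 0% of all genes. The 3 mitochondrial genes called have copies, and DESeq2 was not run with copies pooled. For mt-Atp6 the copy held 73.8% to 78.8% of the counts in functional and 58.5% to 71.2% in non-functional tumors. For mt-Co3 these shares were 56.0% to 59.1% and 34.1% to 57.1%, and for mt-Nd3 86.0% to 88.7% and 81.2% to 88.6%. The median log2 fold change was -2.23 over the mitochondrial-encoded members (-0.51 without M4), -0.24 over the nuclear-encoded members (-0.38 without M4) and 0.01 over all genes.

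The groups did not overlap for 3 nuclear-encoded genes and 0 mitochondrial-encoded genes, beside 15% of all genes. Ndufa3, an accessory subunit of complex I, was at 17.0, 13.5 and 14.7 CPM in M1, M2 and M3, at 23.7, 40.6 and 25.5 in M4, M5 and M6, and at 24.7, 22.2 and 23.1 in NI1, NI2 and NI3. The functional tumors were lowest of the 9 libraries and M5 was highest. The log2 fold change was -0.99 (SE 0.25, adjusted p = 0.455, edgeR). Cox6b1, a common subunit of complex IV, was at 53.9, 46.3 and 43.2 CPM in M1, M2 and M3 and at 56.0, 116 and 68.2 in M4, M5 and M6 (-0.75, SE 0.27, adjusted p = 0.460, edgeR). The assembly factor Ndufaf6, named after its values were seen, was at 2.94 to 4.44 and 4.52 to 6.32 CPM. Atp5e, the epsilon subunit of ATP synthase, was at 55.9 to 104 CPM in functional and 73.5 to 236 in non-functional tumors (-1.01, SE 0.40, adjusted p = 0.471, edgeR). Cox4i2 was at -1.11 (adjusted p = 0.482, edgeR). At the upper end were the assembly factor Ndufaf4 (0.50), Cycs (0.45) and Uqcrfs1 (0.41), and without M2 these were at 0.13, -0.20 and 0.0452.

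Differences between single libraries were larger than differences between groups. For each nuclear-encoded gene the log2 level was set against its own mean over the 9 libraries. The median of these differences over the 91 genes was -0.28, 0.32 and -0.44 in M1, M2 and M3, -0.16, 0.57 and -0.06 in M4, M5 and M6, and -0.15, 0.02 and 0.22 in NI1, NI2 and NI3. In M5 79 of the 91 genes were above their own mean and in M2 73, but in M1 only 6 and in M3 only 4. Over all tested genes these medians lay between -0.05 and 0.04. M2 and M3, both functional, thus lay on opposite sides.

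**Figure D4:**
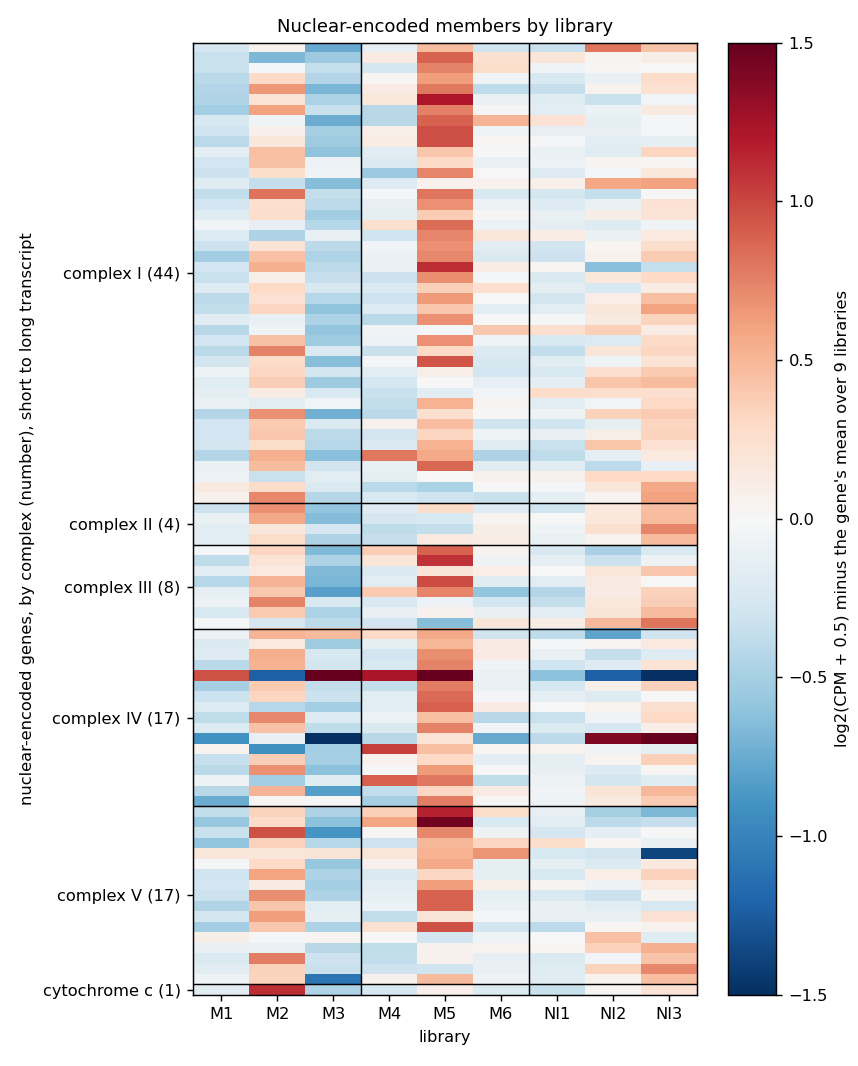
Log2(CPM + 0.5) of each of 91 nuclear-encoded genes minus its mean over the 9 libraries, with genes as rows grouped by complex and sorted from short to long transcript, and libraries as columns. Colours end at ±1.5, so larger values are not distinguished. The M5 and M2 columns are mostly red and the M1 and M3 columns mostly blue.

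In some libraries these differences varied with transcript length. In M5 the median difference was 0.76 over 23 genes with transcripts under 600 bases, 0.70 over 32 genes of middle length and 0.16 over 36 genes of 1000 bases or more. In NI3 it was -0.01, 0.15 and 0.37, and in M2 0.29, 0.28 and 0.36. Spearman's rho between length and difference over the 91 genes was -0.59 in M5, -0.33 in M4, 0.54 in NI3, 0.46 in NI2 and 0.30 in M1, and between -0.16 and 0.17 in the other 4. Over 13824 other protein-coding genes it was -0.37 in M5, -0.01 in M4, -0.09 in NI3, -0.03 in NI2 and 0.35 in M1. The genes of a library share its RNA and its scaling, so these values describe the libraries and carry no test. Cytosolic ribosomal protein genes, which have short transcripts, also had a median difference of 0.84 in M5, 0.35 in M2, -0.72 in M1 and -0.60 in M3. The part of RNA quality or library preparation in these shifts was not tested.

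**Figure D5:**
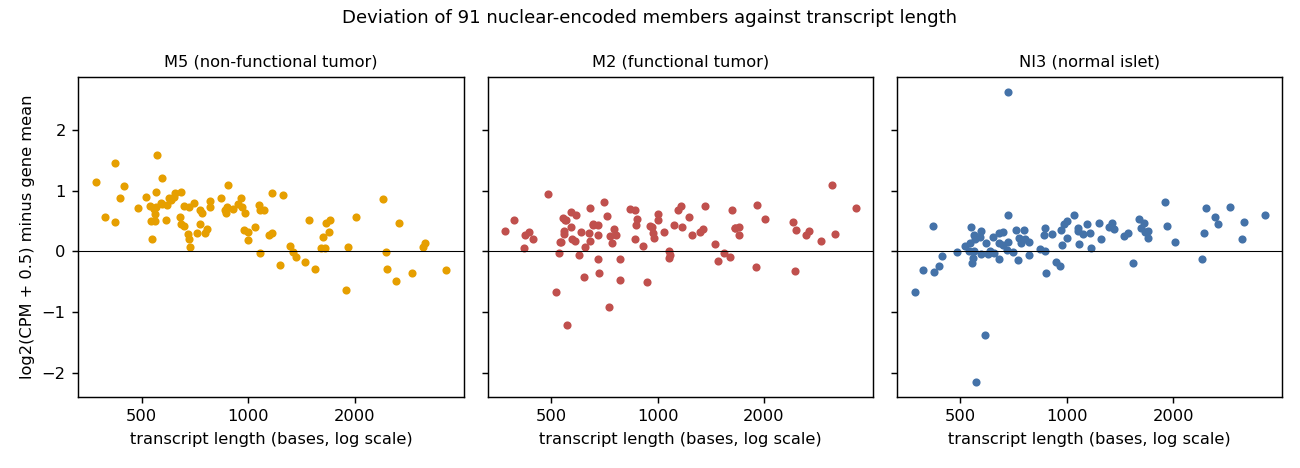
Difference of each of 91 nuclear-encoded genes from its own mean over 9 libraries, log2(CPM + 0.5), against the length of its principal transcript on a log scale, in M5, M2 and NI3. In M5 points fall from left to right (Spearman's rho -0.59), in NI3 they rise (0.54) and in M2 they change little (0.12).

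The genes that drive or accompany the chain were read from lists of regulators and partner pathways. For tumors against islets edgeR called 0 members of any of the 8 lists. At an unadjusted p under 0.05, 3 genes of mitochondrial DNA maintenance were higher and 3 of the citric acid cycle list were lower, and the other lists had 1 to 3 such genes, beside the 19.8% of all genes given above. Median log2 fold changes were -0.0039 for 17 regulators of mitochondrial biogenesis and transcription, 0.19 for 11 genes of mitochondrial DNA maintenance, -0.03 for 16 genes of mitochondrial RNA processing, -0.19 for 17 genes of pyruvate dehydrogenase and the citric acid cycle, -0.04 for 25 assembly factors of complexes III and IV, -0.07 for 18 chain genes outside the rule, 0.06 for 78 genes of the mitochondrial ribosome and -0.07 for 82 genes of the cytosolic ribosome. Without the library labelled NI1, edgeR called Top1mt (log2 fold change 1.95, adjusted p = 0.0419), a mitochondrial topoisomerase, Primpol (1.56, adjusted p = 0.031), a DNA primase and polymerase, and Mrpl23 (1.68, adjusted p = 0.0249), a protein of the mitochondrial ribosome, as higher in tumors, and Rexo2 (-1.24, adjusted p = 0.0235), an oligoribonuclease of mitochondria, and Rps3 (-1.01, adjusted p = 0.0421), a protein of the cytosolic ribosome, as lower, in the fit that called 8.4% of all genes. Between functional and non-functional tumors it called 0 genes of these lists. At an unadjusted p under 0.05, 22 of the 82 cytosolic ribosome genes were lower in functional tumors, beside 10.2% of all genes in both directions. The median was -0.61 over the cytosolic ribosome and -0.21 over the mitochondrial ribosome. The coactivator Ppargc1a, which raises mitochondrial gene expression, was at 15.7 CPM in M2, 4.74 in NI3, 1.22 in NI2 and at 0.13 to 1.05 in the other 6 libraries. M2 was also the only library from a female mouse, so sex and tumor cannot be told apart there.

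Short motifs of NRF1 and YY1, factors known to act on these genes, stood in a larger share of the members' promoters than of all promoters. The ETS and ERR motifs were found in few of the members' windows. RefSeq promoter windows of GRCm38.p6, from 250 bases before to 50 after the start site, were found for 75 of the 94 nuclear symbols (80 windows). The letters GCATGCGC, the core bound by NRF1, stood on either strand in 16.2% of these windows and in 2.71% of all 32851. AAGATGGCG, the core bound by YY1, stood in 8 of the 80 windows and in 1.4% of all. Except in Atp5j, these matches lay 10 to 35 bases after the start site. Their letters contain ATG, and whether they fell on start codons was not tested. The ETS core ACTTCCGG stood in 5 of the 80 windows (6.25%) and in 3.89% of all. CAAGGTCA, bound by ERR receptors, stood in 4 of the 80 windows (5.0%) and in 1.56% of all. The median GC content was 58.0% in members' windows and 52.7% in all. A match is a string of letters and not a measured binding site. Examples with the motif in capitals are shown for genes described above, Cycs at chr6:50566611-50566640 (minus strand), Sdhb at chr4:140961206-140961235 (plus strand) and Ndufs7 at chr10:80249463-80249492 (plus strand).
Cycs, NRF1 letters: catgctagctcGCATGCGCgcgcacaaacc
Sdhb, NRF1 letters: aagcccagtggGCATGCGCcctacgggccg
Ndufs7, YY1 letters: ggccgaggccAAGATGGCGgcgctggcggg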

How the data were processed

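RNA from 6 INS-p25OE tumors and 3 islet samples was sequenced by the authors as single-end reads, trimmed with Trimmomatic 0.38 and quantified with Salmon 1.4.0 against mm10. The authors deposited expected counts per gene as whole numbers, in a table named for TPM whose columns sum to library totals and so were used as counts. How transcripts were summed is not given in the sources used here. Symbols and coordinates came from GENCODE for GRCm38. 253 identifiers did not match.

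edgeR 4.0.16 (R 4.3.3) was fitted to the 15657 genes that reached 1 CPM (counts scaled to a common library total) in 3 or more libraries, with totals and TMM factors computed without mitochondrial genes. Tumors were 1 group of 6 against 3 islet libraries, and functional and non-functional tumors were compared within a fit of 3 groups. P-values are two-sided and Benjamini-Hochberg adjusted over all of these. The standard error is the log2 fold change over the square root of F. The authors state that their sample sizes are biological replicates. The labels do not say that replicates came from separate animals, and p-values measure the spread between these libraries. Alternatives included DESeq2 1.42.0 and limma 3.58.1. Of columns without a sample there were 0. The fits were also run on simulated counts with the same spread for all genes, no outlying library and changed genes only outside mitochondrial DNA. That run does not show how the fits handle M4, the library labelled NI1 or the mitochondrial-encoded genes. Copies were found with blastn 2.17.0+. Genes named were all mitochondrial members, complex II, Cycs, nuclear core subunits, isoform families, called members and the 3 highest and 3 lowest values per comparison. Members and lists were chosen with earlier results of these data known.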

Additional observations from a re-analysis of the deposited data

Results flagged for a closer look

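Each value here is a sample whose distance from its nearest neighbour, as a share of the whole range of the 6 tumors, passed Dixon's critical value for 6 samples at the 95% level. Genes were compared as log2(CPM + 0.5), shares of counts in percent and the ratio as log2, and the list holds for these scales only. For normally distributed values chance gives such a value in about 1 of 20 groups, and 12 of 52 examined values passed. The examined values are not independent, since mitochondrial genes vary together and the shares and the ratio are built from their counts. Most are log2 CPM values whose distribution was not checked. The number that passed can therefore not be set against that rate. M4 was the highest tumor in 9 of them. These were mt-Co1 at 136567 CPM, mt-Cytb at 75794, mt-Nd4 at 46971, mt-Nd5 at 32350, mt-Atp8 at 3062 and mt-Nd4l at 868, the share of counts on the 13 mitochondrial-encoded genes at 31.2%, the share on their nuclear copies at 8.73%, and the log2 ratio of mitochondrial-encoded to nuclear-encoded counts at 6.36. M2 was highest in the other 3, with Cycs at 58.3 CPM, Uqcrfs1 at 143 and Atp5a1 at 639.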

How the results depend on the processing

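In tumors against islets, DESeq2 called 4 members, leaving out both the library labelled NI1 and M4 called 2, pooling copies and leaving out the library labelled NI1 called 2, and leaving out single libraries called 0 to 2. Over all genes (40 called) the count was 104 with no filter, 62 with filterByExpr, 1268 with DESeq2, 98 with the 3-group fit, 1113 without the library labelled NI1 and M4, 71 and 1327 with copies pooled and M4 or the library labelled NI1 left out, and 7 (without NI3) to 1315 (without the library labelled NI1) over single libraries. The median of the mitochondrial-encoded genes (1.88) was 0.58 with copies pooled and M4 left out, and 0.5231 to 2.2137 over single libraries. Without a composition factor the median of all genes was 0.33, a shift of all genes, and Sdhc (0.12), Sdhd (0.042), Ndufs3 (0.038) and Uqcrc1 (0.087) turned positive but stayed under it. In functional against non-functional tumors, DESeq2 called 4 members and 112 genes, no filter gave 1 gene, and single libraries 0 to 1. The median of the mitochondrial-encoded genes (-2.23) was -0.51 without the library labelled NI1 and M4, -0.46 with copies pooled and M4 left out, and -2.7854 to -0.5145 over single libraries. Without M4, mt-Co1 (0.14), mt-Atp8 (0.0651), mt-Nd5 (0.41) and mt-Nd4l (0.54) turned positive, with the same values when the library labelled NI1 was also left out. With copies pooled the values without M4 were 0.0647 for mt-Atp8, 0.41 for mt-Nd5 and 0.58 for mt-Nd4l. Over single libraries the other ends of their ranges were -2.4268, -2.7906, -2.4529 and -2.2422. Cycs ran from -0.20 (without M2) to 0.7309 (without M3). Leave-one-out values of the ratio stand in the report. The cause of these changes was not tested. Alternatives that pooled copies, or left out M4 together with another library, were chosen after the data were seen.

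Labels give functional tumors and islets the same numbers. Same-numbered libraries deviated together with correlations of -0.05, 0.03 and -0.16, and differently numbered ones with -0.11 to 0.17. These values give no sign that the numbers pair samples, but so few libraries cannot exclude it. Functional tumors against islets with the replicate block called 35 genes, and 130 without it. The mitochondrial-encoded median was 0.38 with and 0.37 without the block. With the block mt-Atp6 (-0.50), mt-Co3 (-0.37), mt-Nd3 (-0.0012), Ndufa4l2 (-0.087) and Atp5e (-0.0057) were negative, and without it mt-Atp6 (-0.45), mt-Co3 (-0.30), mt-Nd2 (-0.0028), mt-Nd3 (-0.0095) and Ndufa4l2 (-0.077).

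With 3 islet libraries, 1 of which goes against its label on Cdk5r1, a single library can decide a call. Levels below the 3-count floor (Cox7b2, Cox8b and Cox8c in most libraries) could not be compared.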
